A study of Homo sapiens with 58 samples.

Results

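The genes of the transforming growth factor beta (TGF-beta) and bone morphogenetic protein (BMP) pathway were described across 58 human cell lines labelled as breast cancer. The list held 39 genes in all, chosen by name as ligands, latent binding proteins, receptors, SMADs and inhibitors. A gene was represented by the probe set, among those annotated to that gene alone, with the highest mean. Such a probe set existed for 38 of the 39 members, out of 19798 genes represented on the array, and BMPR1A was not analysed here. All 38 were detected, meaning above the array median in at least 3 origin units, as were 14651 genes in total.

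TGF-beta, activin and BMP ligands are secreted dimers that bring together type II and type I receptors, which are kinases. The activated type I receptor phosphorylates SMAD proteins, SMAD2 and SMAD3 for TGF-beta and activin or SMAD1 and SMAD5 for BMPs, and these enter the nucleus with SMAD4 to regulate transcription. In breast epithelium the TGF-beta branch is known for restraining growth and, in advanced tumours, for promoting loss of epithelial junctions.

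Each line was measured once, untreated, on a custom Affymetrix array, from amplified and biotin-labelled total RNA of cells kept in the medium of the vendor. The labels define no groups and no line has a replicate, so each line is given by its own name. Sets of lines reported to share a donor were averaged before any spread or test, namely AU565 with SKBR3, 3 EFM192 lines, HMT3522S1 with HMT3522T42, MB157 with MDAMB157, MDAMB435S with M4A4 and NM2C5, and VP229 with VP267. This left 50 origin units, called units below, and p-values measure only the spread between them. Other origins than the breast have been reported for MT3 and for the MDAMB435 set. Some lines are immortalised mammary epithelial lines rather than cancer lines, which the labels do not tell apart.

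Array medians ran from 5.37 to 5.58 on the log2 scale. Background was taken as 5.63, the 95th percentile of 569 viral probe sets. Most of 7 epithelial markers were above it in 46 of 54 lines and in 0 of the 4 lines HS362T, HS579MG, HS605T and HS739T, called the 4 Hs lines below. In these 4 lines the mean of 12 fibroblast and stromal markers was 12.80 to 12.90, against 3.94 to 12.75 in the other 54 lines, where HS578T was highest. Blood markers averaged at most 6.53 in any line and endothelial markers at most 6.99, in HCC1954. Melanocyte markers reached 11.32 in NM2C5 and intestinal markers 11.49 in MT3. SW527 was next for intestinal markers, at 7.40 with all 4 above background. MB157 and MDAMB157, grouped by name, had profiles that correlated at only r = 0.29 over 10799 variable probe sets, whereas OCUBF and OCUBM, kept apart, correlated at r = 0.78, both as descriptions of 2 arrays each. Regrouping these lines changed no count below by more than 1.5 times. The profiles of the 4 Hs lines were also close to each other, with r up to 0.92 between HS605T and HS739T, although their names give them as separate lines.

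Promoter sequences are shown for the 3 TGF-beta ligands, which differed in which lines expressed them, for TGFBR2, which had the smallest adjusted p in the fit on TGF-beta target genes, and for SMAD6, the only member past the threshold in the fit on BMP target genes. They are from RefSeq (build GRCh38.p14), and 36 of the 39 members had an entry. Each is the 250 bases before an annotated transcription start, printed 5′ to 3′ on the strand of the gene. Where a gene had 2 starts (TGFB3 and TGFBR2), the window with more matches is shown. Capitals mark matches on either strand to the SMAD-binding palindrome GTCTAGAC, to the core promoter element TATAAA and to the Sp1-type box GGGCGG.

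TGFB1 (chr19:41353923-41354172, minus strand): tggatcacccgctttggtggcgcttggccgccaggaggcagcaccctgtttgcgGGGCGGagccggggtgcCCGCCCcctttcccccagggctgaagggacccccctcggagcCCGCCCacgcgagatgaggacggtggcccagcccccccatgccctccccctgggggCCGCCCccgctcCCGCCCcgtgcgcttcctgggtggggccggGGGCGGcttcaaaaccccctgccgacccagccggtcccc
TGFB2 (chr1:218345086-218345335, plus strand): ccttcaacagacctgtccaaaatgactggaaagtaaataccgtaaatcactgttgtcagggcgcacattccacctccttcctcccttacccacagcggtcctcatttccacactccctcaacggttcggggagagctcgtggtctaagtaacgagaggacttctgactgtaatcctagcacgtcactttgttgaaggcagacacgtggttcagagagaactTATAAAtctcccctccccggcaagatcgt
TGFB3 (chr14:75981996-75982245, minus strand): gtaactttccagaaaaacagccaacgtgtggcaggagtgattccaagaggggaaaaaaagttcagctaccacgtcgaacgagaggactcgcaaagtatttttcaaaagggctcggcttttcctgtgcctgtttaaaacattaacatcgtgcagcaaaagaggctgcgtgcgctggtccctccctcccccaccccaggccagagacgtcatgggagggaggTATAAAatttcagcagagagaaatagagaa
TGFBR2 (chr3:30606351-30606600, plus strand): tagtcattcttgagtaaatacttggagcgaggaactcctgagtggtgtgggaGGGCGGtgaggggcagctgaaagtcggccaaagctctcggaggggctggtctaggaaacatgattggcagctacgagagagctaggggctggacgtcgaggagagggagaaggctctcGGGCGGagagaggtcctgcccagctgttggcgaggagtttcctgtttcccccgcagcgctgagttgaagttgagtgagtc
SMAD6 (chr15:66701986-66702235, plus strand): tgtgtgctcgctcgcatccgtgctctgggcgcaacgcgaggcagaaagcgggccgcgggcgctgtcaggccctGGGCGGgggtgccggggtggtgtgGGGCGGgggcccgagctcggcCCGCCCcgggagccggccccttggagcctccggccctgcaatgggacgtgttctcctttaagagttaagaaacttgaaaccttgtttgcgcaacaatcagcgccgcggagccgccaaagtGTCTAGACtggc

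The TGFB1 window held 6 matches to GGGCGG and no TATAAA, and its GC content was 76.8%. TGFB2 and TGFB3 each held TATAAA, beginning 29 and 30 bases before the start, and no GGGCGG, with a GC content of 50.4% and 49.2%. TGFBR2 held 2 matches to GGGCGG. SMAD6 held 3, and it was the only member of the 36 with GTCTAGAC, which began 12 bases before its start. Over all 35116 windows of this length, GTCTAGAC was present in 0.182%, TATAAA in 10.7% and GGGCGG in 42.6%, and the median GC content was 58.0%. These shares are per window, and some members had several windows. Of the other motifs searched, CAGAC was in 17 of the 36 members, GGCGCC in 16 and TGANTCA in 4. SMAD6 held none of these, which were in 38.0%, 16.4% and 6.57% of all windows. The marked motifs do not overlap each other in the printed windows, and a match is a stretch of letters, not a measured site.

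The pathway genes varied widely between lines. Of the 38 members, 22 had a standard deviation (SD) of at least 1 log2 unit over the 50 units, which is 57.9% against 34.2% of all detected genes, and 12 exceeded 2. The median SD was 1.22 over the members and 0.70 over all detected genes. Ligands and extracellular or surface inhibitors most often passed this limit. All 3 TGF-beta ligands, both activin genes, 4 of 5 BMP and GDF genes and all 4 extracellular or surface inhibitors were past it. So were 2 of 4 latent binding proteins, 3 of 9 receptors, 2 of 5 receptor-activated or common SMADs and 2 of 6 intracellular inhibitors.

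**Figure D1:**
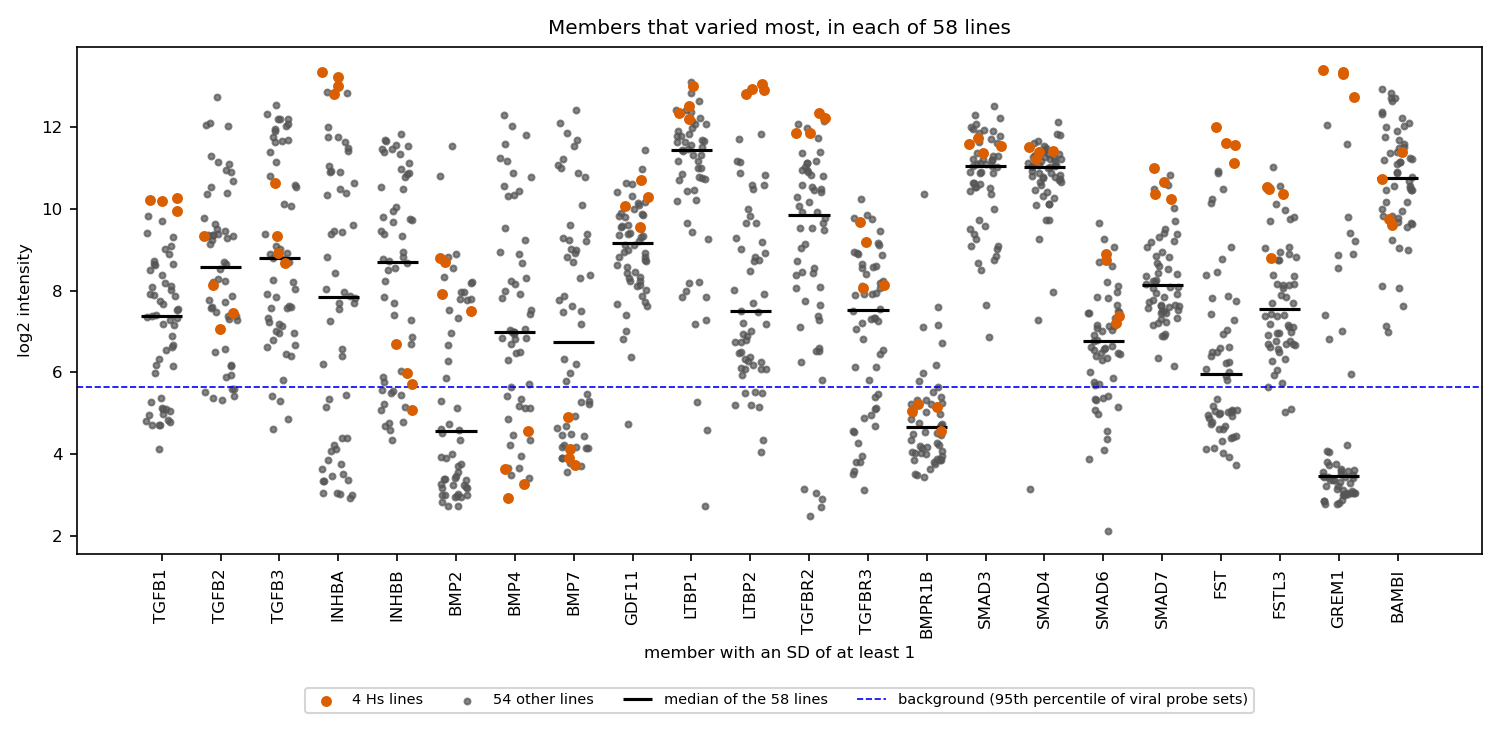
Log2 intensity (vertical axis) of the 22 members with an SD of at least 1, in each of the 58 lines. Orange points are the 4 Hs lines, grey points the 54 other lines, black bars the median of the 58 lines and the dashed line the background of 5.63; GREM1 and INHBA span over 10 log2 units.

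The 3 TGF-beta ligands differed in the lines that expressed them. TGFB1, the ligand made by most tissues, ranged from 4.12 in OCUBM through a median of 7.38 to 10.25 in HS579MG, and was at or below background in 15 lines. TGFB2 ranged from 5.33 in BT20 through a median of 8.58 to 12.73 in SUM149PT, followed by 12.11 in HCC1143 and 12.06 in MDAMB231. TGFB3 ranged from 4.62 in MT3 through a median of 8.79 to 12.54 in MDAMB453, followed by 12.33 in OCUBF and 12.21 in SKBR3. The highest 3 lines were thus a different trio for each ligand. The 4 Hs lines were at the top for TGFB1 but had TGFB2 of only 7.07 to 9.33 and TGFB3 of 8.68 to 10.64.

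Activins are dimers of the subunits encoded by INHBA and INHBB. INHBA was the most variable member, with an SD of 3.48, and fell into separate clusters of 19 low and 31 high units. It ranged from 2.94 in MT3 through a median of 7.85 to 13.33 in HS605T and was at background in 21 lines. Counted in units, INHBA was at background in 19, as many as in its low cluster. INHBB ranged from 4.34 in MDAMB435S through a median of 8.69 to 11.84 in MDAMB453, followed by 11.67 in SKBR3 and 11.66 in AU565. The subunits were high together in some lines and apart in others. DU4475 had INHBA at 12.83 and INHBB at 11.47, whereas HS605T had 13.33 and 5.72.

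Of the BMP ligands, 3 covered most of the range of the array. BMP2 was at background in 34 of 58 lines and ranged from 2.74 in MB157 through a median of 4.56 to 11.52 in SUM149PT, with HCC1143 next at 10.79. BMP4 ranged from 2.93 in HS605T through a median of 6.98 to 12.30 in SW527, followed by 12.01 in MDAMB231. BMP7 ranged from 3.55 in CAL120 through a median of 6.75 to 12.42 in EVSAT, followed by 12.09 in SKBR3 and 11.84 in KPL1. BMP7 was at background in 25 lines. BMP2 fell into clusters of 29 low and 21 high units and BMP7 into 21 and 29, whereas BMP4 formed no separate clusters. BMP2 was at background in 29 units and BMP7 in 21, as many as in their low clusters. These clusters thus largely part unmeasured from measured levels. GDF11, a ligand that signals like the activins, was above background in all lines but MT3, where it was 4.75, against a median of 9.16 and a highest value of 11.45 in M4A4. BMP6 was at background in 51 lines and reached 7.22 in HS739T.

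Latent TGF-beta binding proteins tether the inactive ligand to the matrix, although LTBP2 is known not to bind it. LTBP1 was high in nearly all lines, with a median of 11.43 and a highest value of 13.11 in HS578T, but was 2.74 in DU4475, 4.58 in MT3 and 5.28 in NM2C5, all at background. LTBP2 ranged from 4.05 in MT3 through a median of 7.49 to 13.05 in HS605T. LTBP3 and LTBP4 had an SD of 0.69 and 0.68 and stayed between 5.81 and 8.47 and between 4.52 and 7.60.

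Among receptors, the type II TGF-beta receptor TGFBR2 stood out with an SD of 2.68. It ranged from 2.48 in T47D through a median of 9.85 to 12.33 in HS605T. It was below background in 5 lines, with 2.71 in DU4475, 2.90 in CAMA1, 3.05 in ZR7530 and 3.14 in EVSAT besides T47D, and the next unit was at 5.81. Its partner, the type I receptor TGFBR1, was above background in every line, from 8.33 in HCC70 through a median of 10.44 to 11.81 in SKBR3, also where TGFBR2 was low. TGFBR3, the co-receptor betaglycan, ranged from 3.12 in DU4475 through a median of 7.52 to 10.24 in CAL120. BMPR1B, a type I BMP receptor, was at background in 49 lines but reached 10.36 in MFM223, against 7.59 in the next line, UACC893, and no other member had a unit standing 2 log2 units or more above the next (background 1.85%). The type II receptors ACVR2A and BMPR2 and the type I receptors ACVR1 and ACVR1B were above background in every line, with SDs between 0.46 and 0.83. ACVR2B, an activin type II receptor, was lower, between 4.88 and 7.55.

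The receptor-activated and common SMADs, SMAD1 to SMAD5, had medians near or above 10, and among them SMAD3 and SMAD4 varied most. SMAD1, SMAD2 and SMAD5 had medians of 10.78, 10.55 and 9.96 and SDs of 0.55, 0.53 and 0.47. SMAD3 had a median of 11.05 and a highest value of 12.52 in HCC1143, and was lowest in OCUBF at 6.85, OCUBM at 7.65 and EVSAT at 8.51, with CAL148 at 8.66 and DU4475 at 8.75 next. SMAD4, the common partner, had a median of 11.03 and a highest value of 12.13 in HCC1187. It was at background only in MDAMB468, at 3.16, and next lowest in SW527 at 7.29.

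Inside the cell the pathway is restrained by the inhibitory SMADs, SMAD6 and SMAD7, by the ubiquitin ligases SMURF1 and SMURF2 and by the SMAD-binding repressors SKI and SKIL. SMAD6, known best as an inhibitor of BMP signals, ranged from 2.13 in DU4475 through a median of 6.77 to 9.64 in COLO824. SMAD7, which TGF-beta itself induces, ranged from 6.15 in HCC1937 through a median of 8.13 to 11.002 in HS362T. SKI was the least variable member, between 11.14 and 12.98 with an SD of 0.37, and SMURF1, SMURF2 and SKIL had SDs of 0.65, 0.83 and 0.62.

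The secreted and surface inhibitors ranged as widely as the ligands. GREM1, the BMP antagonist gremlin, was at background in 42 lines and ranged from 2.78 in MB157 through a median of 3.47 to 13.39 in HS579MG. Its units fell into clusters of 34 low and 16 high, and GREM1 was at background in 35 units. FST, the activin-binding follistatin, ranged from 3.72 in ZR7530 through a median of 5.95 to 11.99 in HS739T, with clusters of 38 low and 12 high units. FSTL3, a related activin-binding protein, ranged from 5.03 in HCC1187 through a median of 7.55 to 11.02 in MCF102A. BAMBI, a decoy receptor without a kinase, was above background in all lines, from 6.99 in HCC1806 through a median of 10.74 to 12.93 in MDAMB175VII.

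A member was called low in a unit if it lay more than 3 scaled median absolute deviations and at least 1.5 log2 units below its own median, among the 34 members with a median above background. There were 20 such values, over 9 members and 16 units, and 10 of them were at or below background, where only a bound is measured. The 9 members are 26.5% of the 34, near the background of 24% among all detected genes with a median above background, so low values were about as frequent here as elsewhere. TGFBR2 accounted for 5, SMAD4 for 4, and SMAD3 and LTBP1 for 3 each, and GDF11, TGFBR1, SMAD2, SMAD5 and SMAD6 for 1 each. DU4475 was low in LTBP1, TGFBR2 and SMAD6. Near the limits of the rule, SMAD5 in BT20 was 1.51 log2 units below its median and SMAD2 in HCC1937 was 1.55 below.

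The detected genes beside a low member, chosen for description after the values were seen, differed between cases. In MDAMB468, SMAD4 was at 3.16 against a median of 11.07 over units. Its neighbour ELAC1, also below background there, was at 4.84 against a median of 7.77, while MEX3C on the other side was 0.29 above its median. In HCC1937, SMAD2 was at 9.06 against a median of 10.61, and on the same stretch of chromosome 18 SMAD7, DYM and C18orf32 were each the lowest of all units and HDHD2 the second lowest. Here a run of genes was low, whereas in MDAMB468 it was SMAD4 and 1 neighbour. In HCC70, TGFBR1 was at 8.33 against a median of 10.44, and its neighbour ALG2, at 7.205 against 8.58, was also the lowest of all units. COL15A1 at 2.22 and NR4A3 at 3.89 were the lowest too, but both lay below background. SEC61B, beyond ALG2, was at 11.24 against a median of 11.87, while ERP44 was 0.02 above its median. In OCUBF, SMAD3 was 4.18 below its median with its neighbours SMAD6 and AAGAB 0.17 and 0.21 above theirs. In DU4475, SMAD6 was below background, at 2.13 against a median of 6.96, and the neighbouring SMAD3 was 2.28 below its median, while AAGAB beyond it was 0.14 above. Copy number was not measured.

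**Figure D2:**
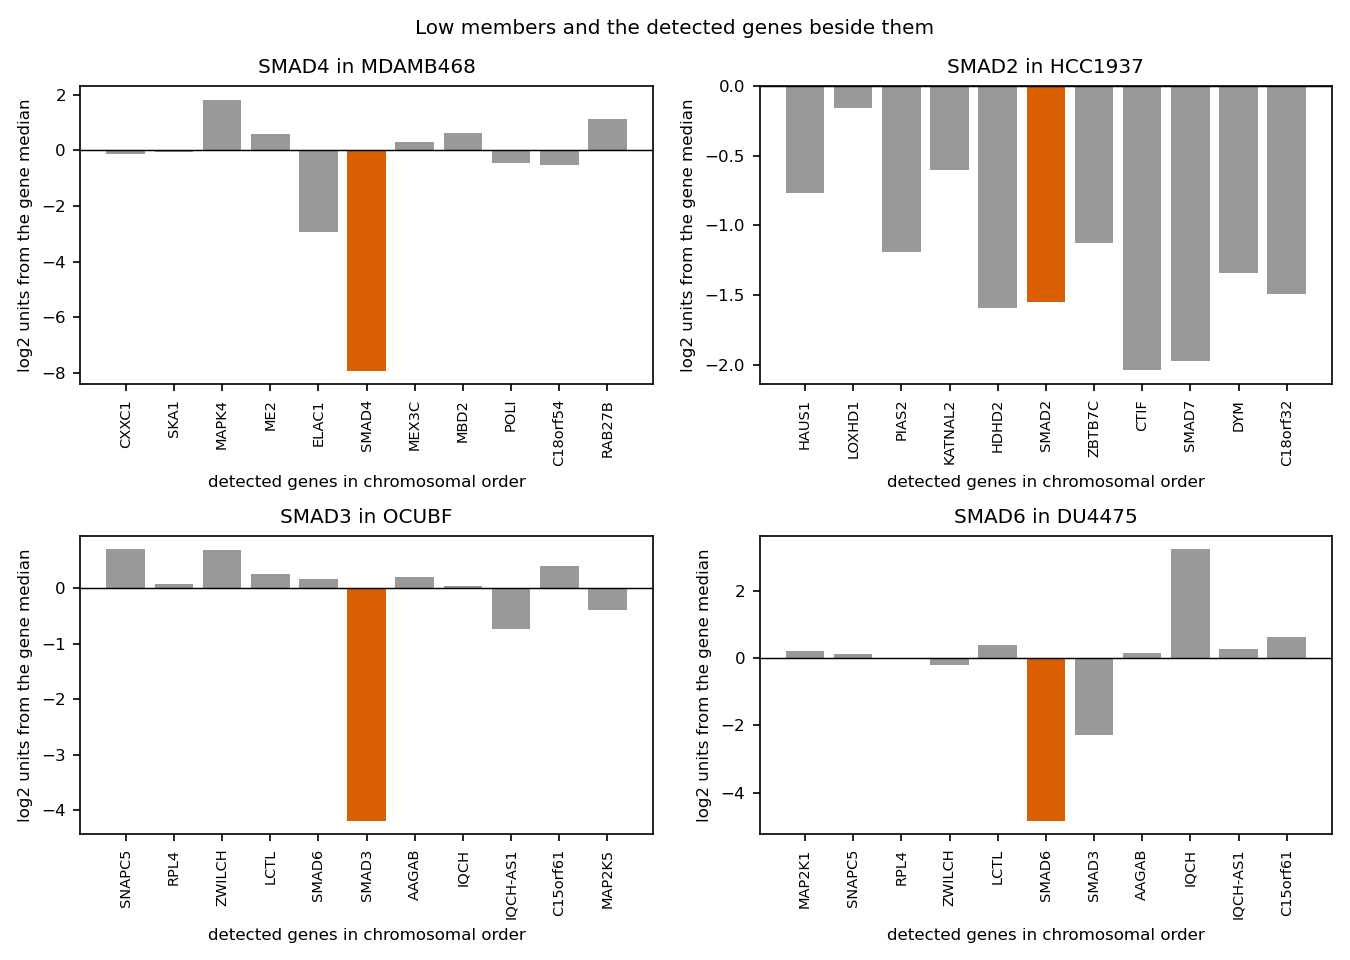
Difference from the median over 50 units, in log2 units (vertical axis), for a low member (orange) and up to 5 detected genes on each side in chromosomal order (grey), in 4 lines. In HCC1937 all genes shown are below their medians, in OCUBF SMAD3 alone lies more than 1 log2 unit below, and in MDAMB468 SMAD4 and ELAC1 do; bars that end below background show only a bound.

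The 4 Hs lines were set apart with their stromal gene levels known, so their values are a description without a test. LTBP2 was 12.81 to 13.05 in the 4 Hs lines, against 4.05 to 11.83 in the other 54 lines. GREM1 was 12.72 to 13.39 in the 4 Hs lines, against 2.78 to 12.06 in the others, with FR2 highest. FST was 11.12 to 11.99 against 3.72 to 10.93 in the others. TGFB1 and BMPR2 also lay above every other line, at 9.95 to 10.25 against at most 9.82 in MDAMB157, and at 11.69 to 12.11 against at most 11.55. These 5 members of 38 did not overlap, 13.2%, where the background was 1.29% of detected genes, and no member lay below every other line. INHBA was 12.82 to 13.33 in the 4 Hs lines and overlapped with 2 of the other lines, HS578T at 12.86 and DU4475 at 12.83. BMP4 and BMP7 were low there, at 2.93 to 4.57 and 3.74 to 4.90, against medians of 7.01 and 7.48 in the others.

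Lines of 1 reported donor could differ in the same members. At least 2 log2 units separated the lines for 14 of 38 members in EFM192 (12.5% of all detected genes did), 9 in MB157 and MDAMB157 (10.4%), 6 in the MDAMB435 set (6.76%), 4 in VP229 and VP267 (8.68%), 2 in AU565 and SKBR3 (2.82%) and 1 in the HMT3522 pair (3.97%). There was 1 array per line, so no test was possible. MB157 and EFM192A were among the 3 arrays with the widest spread around the probe set medians (interquartile range 0.63 each). Of 12 stromal markers, 9 were above background in EFM192A, against 4 in EFM192B and 2 in EFM192C. The cause of these differences was not tested. BMP2 was 8.22 in EFM192B but 3.02 in EFM192A and 2.99 in EFM192C. BMP7 was 3.92 in VP267 and 9.01 in VP229. It was 12.09 in SKBR3 and 8.91 in AU565. LTBP1 was 7.27 in M4A4, 5.28 in NM2C5 and 11.62 in MDAMB435S. INHBA differed by at least 2 log2 units in 5 of the 6 sets, for example 11.75 in VP267 and 7.56 in VP229, and 7.88 in HMT3522T42 and 11.63 in HMT3522S1. GREM1 was 8.89 in MDAMB157 and 2.78 in MB157, the pair with the low profile correlation.

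Across the 50 units most of the members without separate clusters did not move together closely. Among these 33 members there were 528 pairs, with a median r of 0.06. The correlation exceeded 0.6 for 7 pairs, or 1.33%, and lay under -0.6 for 0. Of all pairs of detected genes 0.231% exceeded 0.6, but there genes with clusters were not left out, so the shares are of unlike sets. SMAD2 and SMAD7, both on chromosome 18, had r = 0.67. SMAD4, on the same chromosome, had a Spearman rho of 0.79 with SMAD7 and 0.66 with SMAD2, where r was 0.47 and 0.30. By rho 9 pairs exceeded 0.6, 5 of them also by r. TGFBR2 and SMAD3 had r = 0.63. LTBP2 was in 3 of the pairs, with BMP6 at 0.67, SKI at 0.66 and ACVR1 at 0.63. BMP6 was at background in 44 of the 50 units. TGFB3 and ACVR1B, and TGFBR2 and ACVR1, had r = 0.63 each. These are descriptions over units that share arrays of 1 platform and normalization. Of the genes outside the list, INHBA was most like TGFBI (r = 0.79), ITPRIP (0.78) and ADAM19 (0.78), GREM1 most like RCN3 (0.77), TRO (0.75) and EFEMP2 (0.75), and BMP7 most like RBM38 (0.69), RNF44 (0.64) and KDM6B (0.62), all over 50 units. Since INHBA, GREM1 and BMP7 fall into clusters, the coefficients also carry the step between clusters. Where a member had further probe sets with a mean above background, 26 of 34 comparisons gave r over 0.8 with the chosen one, with a median of 0.92 and the lowest, 0.29, for ACVR2A.

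The oestrogen receptor gene ESR1 and the E-cadherin gene CDH1, which marks epithelial junctions, were each used as a continuous term in a limma fit over all detected genes, with Benjamini-Hochberg adjustment over them. Both fell into clusters of 21 low and 29 high units, and the cluster was a factor in the fit. ESR1 was at background in 22 units and CDH1 in 10, where levels have no order. The low cluster of ESR1 thus largely holds unmeasured levels, and the factor takes up the step between clusters. The ESR1 fit with the factor therefore does not test units with against units without a measured level. With ESR1, 0 of 38 members passed an adjusted p of 0.05 in limma, where 0.614% of all genes passed with a positive and 0.239% with a negative slope, and 9 members had an unadjusted p under 0.05, as did 16.2% of all genes. Without the cluster factor 3 passed, INHBB upward and SKI and TGFB1 downward, with backgrounds of 4.48% and 2.27%. INHBA missed in the fit with the factor at a slope of -0.84 ± 0.27 (SE, adjusted p = 0.102 in limma).

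With CDH1, 2 members passed (backgrounds 1.22% upward and 1.13% downward). BMP4 rose by 0.75 ± 0.20 log2 units per log2 unit of CDH1 (SE, 50 units, adjusted p = 0.0332 in limma), and GREM1 fell by 0.81 ± 0.23 (adjusted p = 0.0481). GREM1 was at background in 42 of the 58 lines, where levels have no order. GREM1 lost its call on leaving out any of 35 of the 50 units and BMP4 on 8. Neither passed without the 4 Hs lines, and 0 members passed when any one of SW527, MT3, CAL51 or the 4 Hs lines was left out. Without the cluster factor 16 members passed, 2 upward (INHBB and ACVR1B) and 14 downward, with backgrounds of 12.7% and 9.86%.

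As a readout of TGF-beta signalling, a score was computed as the mean distance from the median over 10 genes known to be induced by TGF-beta, namely CCN2, TGFBI, PMEPA1, THBS1, TAGLN, ANGPTL4, IL11, JUNB, LMCD1 and NEDD9, none of them a member. The score ran from -1.86 in MT3 to 1.93 in HS739T. It was measured on the same arrays as the members, and it says nothing of protein or of ligand in the medium. In the limma fit on this score 22 of 38 members passed. The slope was positive for 17, which is 44.7% against a background of 12.4%, and negative for 5, 13.2% against 16.8%. The median slope was 0.20 over the members and -0.04 over all genes.

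By role, 6 of 10 ligands rose and 2 fell, 2 of 4 latent binding proteins rose, 2 of 9 receptors rose and 2 fell, 1 of 5 SMADs rose and 1 fell, and 6 of 10 inhibitors rose. TGFBR2 rose by 1.83 ± 0.25 log2 units per unit of score (SE, adjusted p = 8.78e-07), ACVR1, a type I receptor known mainly for BMPs, by 0.55 ± 0.08 (2.98e-06) and SMAD3 by 0.73 ± 0.12 (2.0e-05). Among the ligands, INHBA rose by 2.20 ± 0.35 (8.08e-06), BMP2 by 1.44 ± 0.26 (5.52e-05), TGFB2 by 0.999 ± 0.23 (0.000895), BMP6 by 0.49 ± 0.11 (0.000613), and GDF11 and TGFB1 passed with slopes of 0.51 and 0.71. TGFB3 did not pass, so the test called 2 of the 3 TGF-beta ligands. Of the secreted inhibitors, FST rose by 1.497 ± 0.25 (1.48e-05), FSTL3 by 0.89 ± 0.16 (4.58e-05) and GREM1 by 1.59 ± 0.39 (0.00177). LTBP2 rose by 1.55 ± 0.22 (1.71e-06) and LTBP1 passed with a slope of 0.74. Of the intracellular inhibitors, SKI, SMURF2 and SMAD7 passed with slopes of 0.16, 0.34 and 0.45. BMP7 fell by 1.26 ± 0.31 (0.00195), and ACVR1B, ACVR2B, SMAD1 and INHBB passed with slopes of -0.30, -0.22, -0.20 and -0.77. BMP2, INHBA, BMP7, GREM1 and FST are in clusters, so their slopes also carry the step between clusters. BMP6 was at background in 44 units, GREM1 in 35 and BMP2 in 29, where levels have no order. The slopes of BMP6, GREM1 and BMP2 thus largely compare units with and without a measured level.

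**Figure D3:**
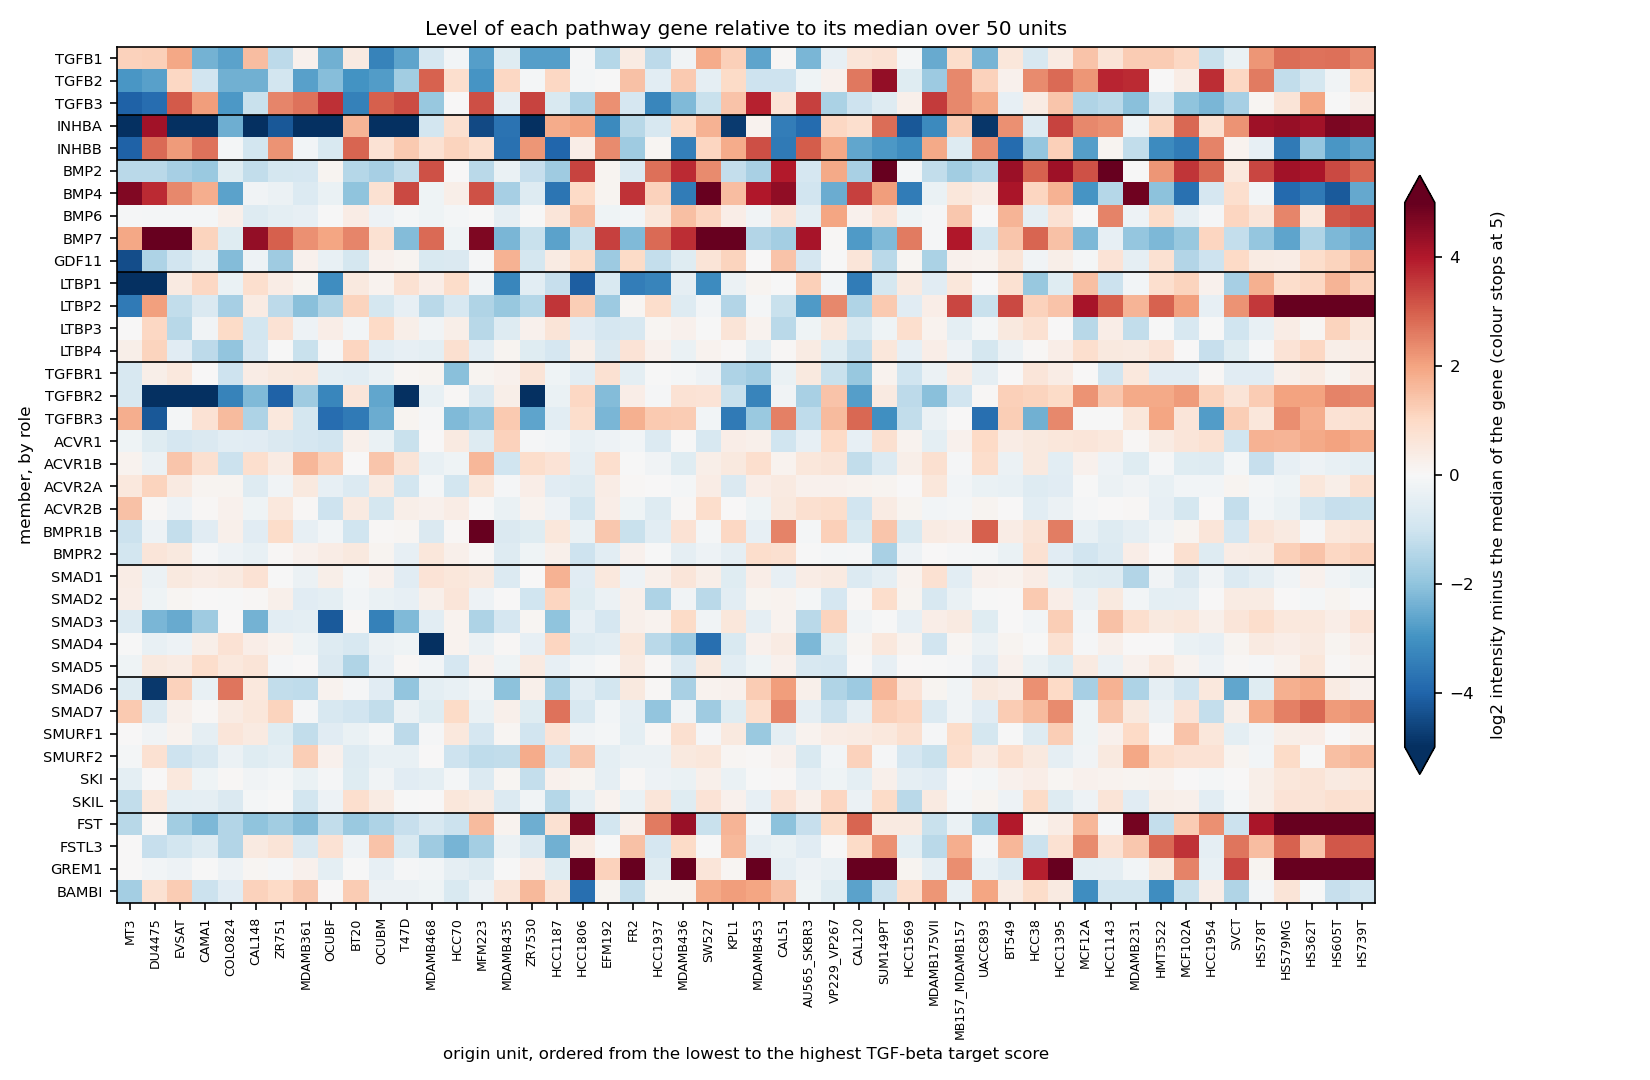
Level of each of the 38 members (rows, by role) minus its median, in log2 units (colour, which stops at 5), in the 50 units ordered from the lowest to the highest TGF-beta target score. TGFBR2 and INHBA are mostly blue at the left, and LTBP2 and FST are darkest red in the 4 Hs lines at the right. GREM1 is equally dark in the 4 Hs lines and in FR2, MDAMB436 and some other units.

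Stromal genes moved with the target score. The mean distance of 12 stromal markers from their medians correlated with the score at r = 0.71 over 50 units, and the 4 Hs lines had its highest values. Added as a term after the data were seen, the stromal score left 4 of the 22 members past the threshold, against backgrounds of 1.05% upward and 0.553% downward. Of the 18 calls lost, 16 kept the sign of their slope. LTBP1, SMURF2 and SMAD1 kept slopes of 0.72, 0.32 and -0.22, each at least 90% of that in the first fit. The slopes of INHBB, SKI and TGFB1 were -0.19, 0.01 and 0.09. Leaving out the 4 Hs lines left 11 members (backgrounds 4.97% upward and 5.25% downward), and leaving out HS578T too left 9 (3.61% and 3.23%). With the CDH1 level as a term 12 of the 22 passed (5.65% and 6.53%). TGFBR2, SMAD3, TGFB2 and BMP2 passed in every one of these 4 fits. With the stromal score their slopes were 1.89 ± 0.36 (adjusted p = 0.00408 in limma), 0.81 ± 0.18 (0.0171), 1.39 ± 0.32 (0.0240) and 1.42 ± 0.38 (0.0397). The slopes of GREM1 and SMAD7 turned to -0.14 and -0.12 with the stromal score, with adjusted p of 0.914 and 0.817. In RNA of a whole culture, fewer cells of a type and less RNA per cell cannot be told apart.

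**Figure D4:**
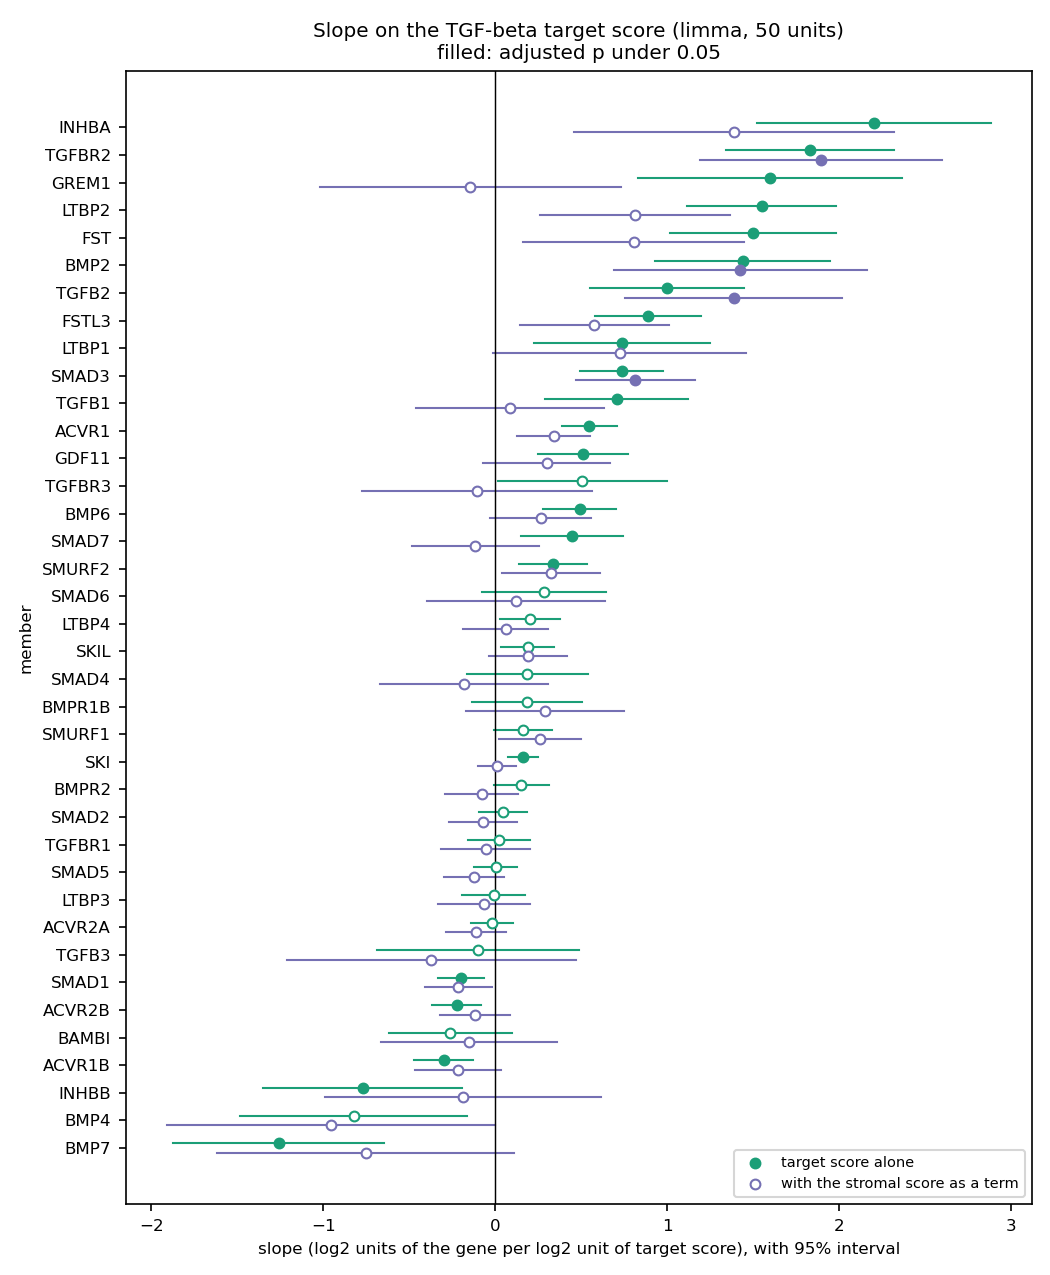
Slope of each member on the TGF-beta target score with its 95% interval (horizontal axis, log2 units per unit of score), alone (green) and with the stromal score as a term (violet); filled points have an adjusted p under 0.05. In green 22 members are filled and in violet TGFBR2, BMP2, TGFB2 and SMAD3.

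TGFBR2 was below background in 5 lines, and all of these had a target score under 0 in the plot of levels against the score. Their scores ran from -1.77 in DU4475 to -0.45 in ZR7530, where the median over the 50 units was -0.03. These units also entered the slope of TGFBR2, so their scores are no separate support for it. TGFB2 was 7.07 to 9.33 in the 4 Hs lines, which had the highest scores, against 12.73 at its peak in SUM149PT. Without the 4 Hs lines the slope of TGFB2 was 1.46 ± 0.24 (adjusted p = 0.000164 in limma). BMP2 was at background in 34 lines, so its slope compares lines with and without a measured level.

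**Figure D5:**
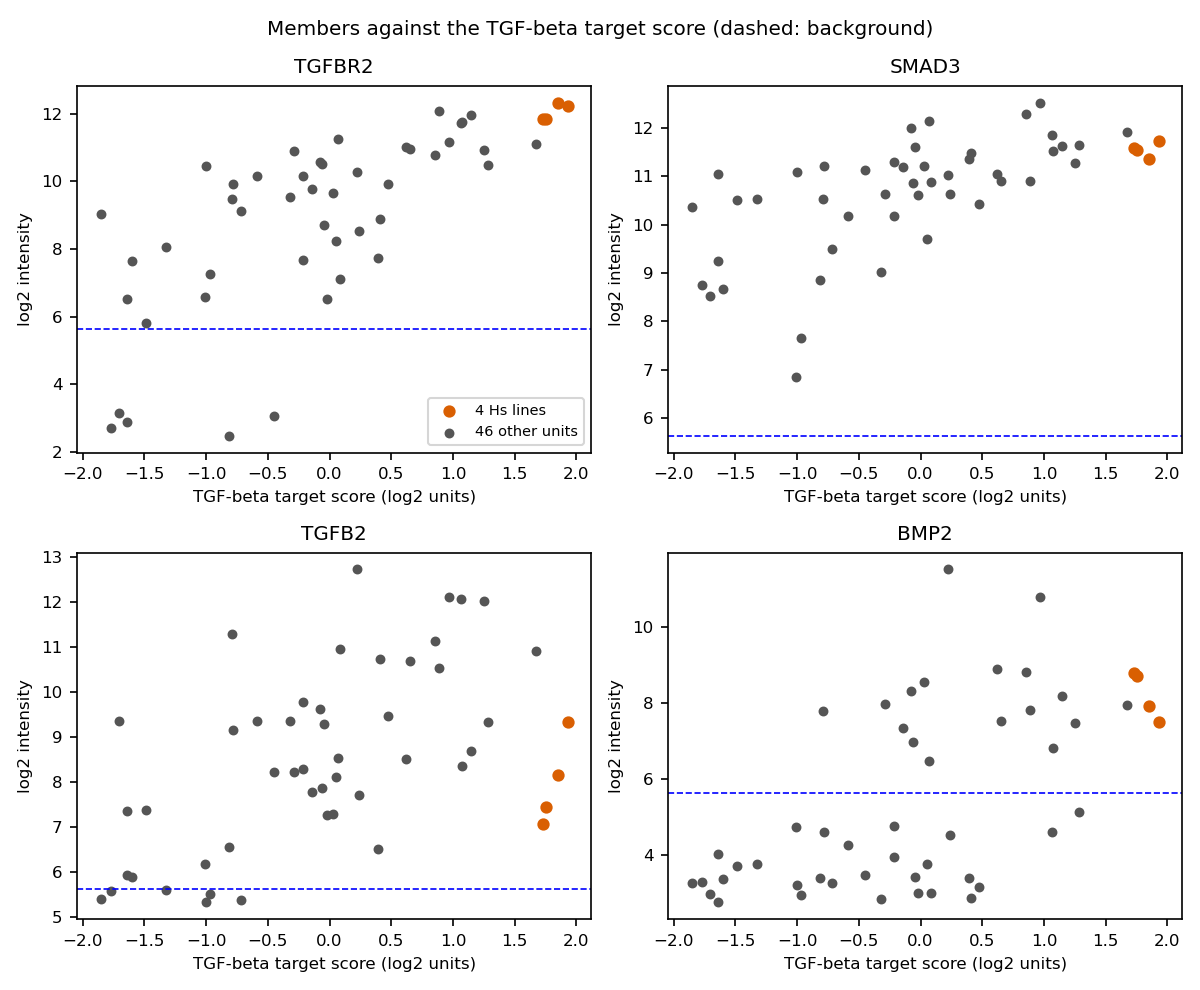
Log2 intensity (vertical axis) of TGFBR2, SMAD3, TGFB2 and BMP2 against the TGF-beta target score (horizontal axis, log2 units) in the 4 Hs lines (orange) and 46 other units (grey), with background dashed. The 5 units with TGFBR2 below background have scores under 0, where the median score is -0.03, and the 4 Hs lines lie below the top of the TGFB2 and BMP2 plots.

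For the BMP branch a score over ID1, ID2 and ID3, which BMP signals induce, ran from -2.55 in DU4475 to 1.46 in HS362T. In limma 1 of 38 members passed, SMAD6, with a slope of 0.77 ± 0.15 (adjusted p = 0.0361), where the background was 0.0137% in each direction, or 2 genes. SMAD6 was lowest in DU4475, at 2.13, which also had the lowest score. Without DU4475 no member passed, and the call was lost on leaving out any of 16 units. SMAD7 had a slope of 0.59 ± 0.14 and did not pass (adjusted p = 0.147), and 9 members had an unadjusted p under 0.05, as did 11.1% of all genes.

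Of 44 other genes of the pathway, 35 were detected and the SD of 21 was 1 or more. The 3 most variable were ITGB6, a subunit of an integrin that activates latent TGF-beta, with an SD of 3.34, the secreted FSTL1 with 3.20 and BMPER, a BMP-binding protein, with 2.62. On the target score 10 rose and 2 fell (12.4% and 16.8% of all genes did). BMP1, a procollagen protease, rose by 0.94 ± 0.12 (adjusted p = 4.18e-07 in limma), ITGAV, an integrin subunit that activates latent TGF-beta, by 0.40 ± 0.06 and FSTL1 by 2.12 ± 0.31. BMP8B fell by 0.75 ± 0.14 (adjusted p = 0.000116) and TGIF2, a repressor that binds SMADs, by 0.40 ± 0.13. On CDH1 the co-receptor ENG fell by 0.61 ± 0.10 (adjusted p = 0.000464) and LRRC32, which tethers latent TGF-beta to the cell surface, by 0.40 ± 0.11, and on the ID score SMAD9, a BMP-branch SMAD, rose by 1.23 ± 0.24 (adjusted p = 0.0361). On ESR1 0 of the 35 passed.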

How the data were processed

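The 58 arrays, 1 per line, were read from a single table. Per the submitters' processing notes, the authors used RMA in Affymetrix Power Tools, with no version given, and the deposited intensities are on the log2 scale. Whether all arrays were normalized together is not stated. Values ran from 1.53 to 14.77 for 52377 probe sets, of which 35184 named 1 gene, 374 several and 16819 none; the last 2 kinds were left out. The number of arrays limits precision.

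The members and lists were chosen with earlier results of these data known, and so were the 4 Hs lines. The genes named were all 39 members, with lowest, median and highest line for each with an SD of at least 1; members with an adjusted p under 0.05 in each fit; ESR1, CDH1 and the genes of the target and ID scores; 3 like genes for each of the 3 most variable members; and from 44 other pathway genes the 3 most variable and the 3 smallest adjusted p per direction and fit. Neighbours of low members were chosen after their values were seen.

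Slopes were fitted on the level or score with limma 3.58.1 (trend and robust) in R 4.3.3 over 50 units, with 2-sided tests adjusted by Benjamini-Hochberg over all detected genes. A term was split into clusters with mclust 6.1.1 where a mixture of 2 components gained more than 10 in BIC over 1, Ashman's D exceeded 2 and each cluster held 3 units or more. The steps were tested on simulated data. Alternatives were other probe summaries, normalizations, filters and units, lines left out, and terms added.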

Additional observations from a re-analysis of the deposited data

How the results depend on the processing

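With the SD limit set at 0.75 or at 1.5 in place of 1, 25 and 15 members were past it. The count stayed within these ends over the other alternatives tried. The ESR1 count was 3 without the cluster factor and ran from 0 to 3 when single units were left out, 3 without OCUBM. The CDH1 count was 1 with the mean of probe sets, with no filter, with a stricter filter and with array quality as a term. It was 0 with all 58 lines as units, without the MDAMB435 set and MT3, without the 4 Hs lines and without the 3 widest arrays, 16 without the cluster factor, and 0 to 4 on leaving out single units, where GREM1 lost its call 35 times and BMP4 8 times. The target score count was 11 without the 4 Hs lines and 20 to 24 on leaving out single units; with alternatives added after the data were seen it was 4 with the stromal score, 9 without the 4 Hs lines and HS578T and 12 with CDH1. On leaving out single units INHBB lost its call 14 times, LTBP1 and SMAD7 3 times each and ACVR2B once. The stromal score turned the slopes of GREM1 and SMAD7 to -0.14 and -0.12. The ID score count was 0 without the 4 Hs lines, without the 3 widest arrays and, added later, without DU4475, and 0 to 2 on leaving out single units. The cause was not tested. Cross-hybridising probe sets could not be left out by name, since 0 single-gene probe sets on this custom array carry a suffix that marks them. Cross-hybridisation was therefore not checked. No paired analysis was possible because each line was measured on 1 array. Levels at or below the background of 5.63 have no order.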
